A study of Mus musculus with 3 samples.

Results

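The regions described here are CAP-D3 peaks that were listed close together in Rb mutant fibroblasts, in stretches of the genome where the wild-type list held no peak. They were chosen by their positions in the peak lists. A RbΔL/ΔL peak was kept if no Rb+/+ peak overlapped it or lay within 10 kb of it, and if another such RbΔL/ΔL peak lay within a gap of 10 kb. Of the 6437 peaks in the RbΔL/ΔL list, 1068 overlapped a Rb+/+ peak and a further 753 lay within 10 kb of one. The other 4616 peaks (71.7% of the list) had no Rb+/+ peak that near, and 349 of these (7.56%, exact 95% interval 6.81 to 8.36%) had another such peak within 10 kb. Chaining the gaps joined the 349 peaks into 165 clusters, and the remaining 4267 peaks stood singly. Because positions chose the peaks, these counts are a description and carry no test.

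CAP-D3 was profiled in primary embryonic fibroblasts of the mouse, proliferating at passage 4, by ChIP-seq, in which DNA bound by a protein is pulled down with an antibody and sequenced. It held 3 samples, namely 1 CAP-D3 ChIP from Rb+/+ cells, 1 from RbΔL/ΔL cells and 1 input DNA sample without antibody, whose values were not analysed here. RbΔL/ΔL cells are homozygous for an allele whose retinoblastoma protein lacks a working LXCXE-binding cleft, and the Rb+/+ cells carry normal alleles of this gene. No treatment is given for either genotype, and the labels do not say how many embryos each culture came from. With 1 library per genotype there was no replicate spread to compare with, so no test between genotypes was possible and no p-value is given. Read depth is unknown. Intervals are exact 95% intervals for counting error only, and peaks of 1 cluster are not independent of each other.

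CAP-D3 is a HEAT-repeat subunit found in condensin II and not in condensin I. Condensin II is a ring-shaped complex that stays in the nucleus through interphase and compacts and shapes chromosomes as cells enter mitosis. The retinoblastoma protein is best known for restraining E2F transcription factors, and through its LXCXE-binding cleft it also contacts chromatin regulators. The peak lists show where CAP-D3 was found in the presence or absence of that cleft. A region with no listed wild-type peak may still carry signal that was too weak to be listed, and the lists cannot show it. Positions are in build mm9 with 1-based starts. No annotation or genome sequence of that build was used here, so genes, exons and sequence at these sites are not given.

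Most clusters of mutant-only CAP-D3 peaks were pairs. Of the 165 clusters, 149 (90.3%, interval 84.7 to 94.4%) held 2 peaks, 14 held 3 peaks, 1 held 4 and 1 held 5. Only 3 clusters had a further RbΔL/ΔL peak within 10 kb that was left out because it lay near a Rb+/+ peak. The clusters spanned 777 to 20193 bp with a median of 4701 bp (quartiles 2336 and 7992 bp). Together they spanned 871015 bp, of which their peaks covered 143049 bp. In the median cluster peaks covered 17.8% of the span (quartiles 10.9 and 39.1%), so most of the sequence between the outer edges held no peak.

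The largest cluster lay on chromosome 19 at 9051122 to 9067590 and held 5 peaks in 16469 bp. Its scores, which the authors' caller assigned and which serve here only to rank peaks within a list, were 75.42, 70.52, 81.65, 95.25 and 80.18 in order of position. All 5 were above the RbΔL/ΔL list's median of 65.68, which made it the cluster with the highest lowest score (70.52) among those of 3 or more peaks. Its last peaks, at 9066927 to 9067175 and 9067303 to 9067590, were only 127 bp apart, and 7261 bp separated the first from the second. The nearest Rb+/+ peak was 22556 bp away. A score in these lists starts at 50.02, the lowest value listed.

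The cluster of 4 peaks lay on chromosome 9 at 44290426 to 44295981, with scores of 79.34, 70.64, 58.43 and 83.61. Its peaks covered 40.4% of 5556 bp, against 11.4% in the chromosome 19 cluster. Its first and last peaks were wide, at 668 and 680 bp, where the median member measured 416 bp. A Rb+/+ peak with a score of 55.28 lay 12163 bp away, just beyond the distance that would have removed the nearest of these peaks.

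Among the clusters of 3 peaks, some were compact and others loose. The most compact was on chromosome 16 at 57526484 to 57528631, with scores of 65.1, 60.25 and 56.64 in 2148 bp, 77992 bp from the nearest Rb+/+ peak. On chromosome 7, the cluster at 149667191 to 149670066 packed 3 peaks into 2876 bp, and its last peak, 1113 bp wide with a score of 110.35, was the widest of all 349. The other peaks of that cluster scored 52.4 and 58.86, so a wide peak of higher score stood next to peaks close to the lowest score listed. On chromosome 5, the cluster at 120282333 to 120285472 held scores of 59.38, 57.99 and 59.75, which differ by less than 2 score units.

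The loosest cluster, also on chromosome 5, ran from 107576484 to 107596676 with gaps of over 9 kb on both sides of its middle peak, which scored 80.49 between neighbours at 52.4 and 55.06. Next came chromosome 10 at 60941320 to 60955153 (scores 65.15, 56.75 and 64.59), chromosome 4 at 123261296 to 123275117 (58.32, 61.11 and 65.53) and chromosome 15 at 99479293 to 99493044 (60.74, 74.09 and 65.68). In these, peaks covered less than 9% of the span.

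The strongest peak of a 3-peak cluster could stand at its edge or in its middle. On chromosome 1 at 74433256 to 74444035 the scores fell from 108.25 through 78.84 to 62.98 along the coordinate. On chromosome 10 at 8688227 to 8696836 they likewise fell, from 95.25 through 80.18 to 57.14. On chromosome 4 at 116042296 to 116050924 they rose, from 58.95 through 69.7 to 95.25. The clusters on chromosome 2 at 4314234 to 4325960 (59.06, 65.68 and 74.32) and at 75789838 to 75799742 (54.93, 60.74 and 65.68) also rose along the coordinate. On chromosome 7 at 141415441 to 141423432 the middle peak was the weakest (73.23, 57.65 and 65.68). The cluster on chromosome 4 at 87729942 to 87740590 held only weak peaks (57.82, 52.4 and 53.93).

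**Figure D1:**
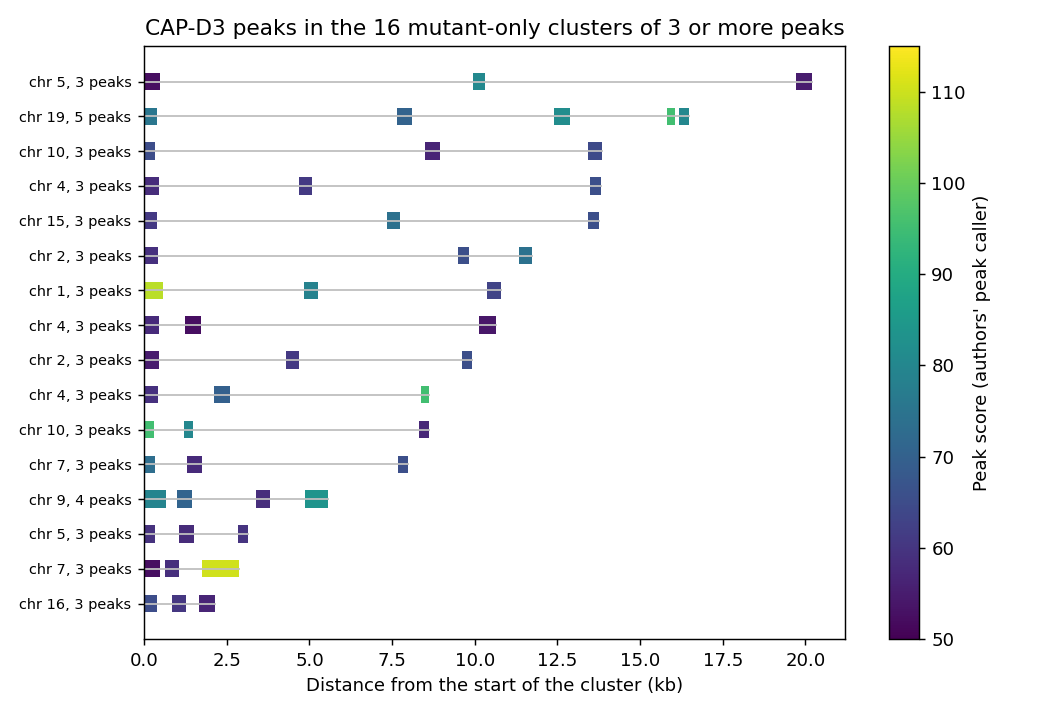
Map of the 16 mutant-only clusters of 3 or more CAP-D3 peaks, ordered by span. The x axis gives the distance in kb from the start of each cluster, each box is 1 peak drawn to its width, and colour gives the peak's score. The chromosome 16 cluster fits in 2148 bp and the widest chromosome 5 cluster takes 20193 bp, and boxes of high and low score occur side by side.

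Inside clusters, short gaps were the most frequent. Of the 184 gaps between neighbouring peaks, 44 (23.9%, interval 17.9 to 30.7%) were under 1 kb, and 24 of these were under 500 bp. From 1 to 2 kb there were 21, from 2 to 4 kb 33, from 4 to 6 kb 38, from 6 to 8 kb 21, and from 8 to 10 kb 27. The median gap was 3705.5 bp (quartiles 1110 and 6482 bp). Per kb of gap length, the share was 23.9% in the first kb and between 5.71% and 11.4% in the later bins.

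The shortest pairs were nearly continuous. On chromosome 14, peaks at 55502104 to 55502406 and 55502449 to 55502930 were 42 bp apart, with scores of 65.68 and 69.1. On chromosome 3, peaks 63 bp apart spanned 108524543 to 108525367 (scores 74.75 and 63.15), and peaks 96 bp apart spanned 96066726 to 96067502 (scores 61.05 and 80.18). In these pairs the peaks covered 94.9%, 92.4% and 87.6% of the span, and each pair was shorter than the widest single member (1113 bp).

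The widest pairs sit at the limit of the rule. They lay on chromosome 3 at 96404568 to 96415453 (gap 9991 bp, scores 56.33 and 58.26), chromosome 8 at 86556594 to 86567322 (gap 9993 bp, scores 52.4 and 89.2) and chromosome 1 at 75491603 to 75502053 (gap 9557 bp, scores 58.1 and 52.26). Just outside it were mutant-only pairs with gaps of 10017 bp (chromosome 3, 132502904 to 132513877, scores 53.25 and 53.71), 10061 bp (chromosome 3, 54164400 to 54175230, scores 62.34 and 60.96) and 10170 bp (chromosome 5, 130698183 to 130709148, scores 71.75 and 77.95). The scores on either side of the limit fall in the same range.

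The same rule applied to the Rb+/+ list, with the roles of the lists exchanged, gave wild-type-only clusters of the same form but more of them. Of 6277 Rb+/+ peaks with no RbΔL/ΔL peak within 10 kb, 805 (12.8%, interval 12.01 to 13.7%) were clustered, in 381 clusters. Clusters of exactly 2 peaks made up 90.3% there too (344 of 381). Gaps under 1 kb were 24.3% of 424 (interval 20.3 to 28.7%), the median gap was 3279 bp and the median span 4524 bp, close to the values of the mutant-only clusters. The Rb+/+ list gave 1.36 times as many peaks free of the other list, 2.31 times as many clusters and a clustered share 1.70 times as high. When only the 6437 highest-scoring Rb+/+ peaks were used, 4757 were free of RbΔL/ΔL peaks and 10.1% (interval 9.23 to 10.96%) of these were clustered. Against that shortened list, 4793 RbΔL/ΔL peaks were free of Rb+/+ peaks and 8.26% (interval 7.50 to 9.08%) were clustered, so the Rb+/+ share was 1.22 times the mutant share. With a minimum score of 60 in the list being clustered, the shares were 5.32% (interval 4.54 to 6.20%) in RbΔL/ΔL and 7.42% (interval 6.54 to 8.37%) in Rb+/+. That minimum kept 4387 of 6437 RbΔL/ΔL peaks and 4670 of 8195 Rb+/+ peaks. The scale of the score is not stated, so the same minimum may not be alike in both lists. The share was thus lower in the mutant list in each of these settings, but its size depended on the length of the lists, and the spread between libraries of 1 genotype is unknown.

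**Figure D2:**
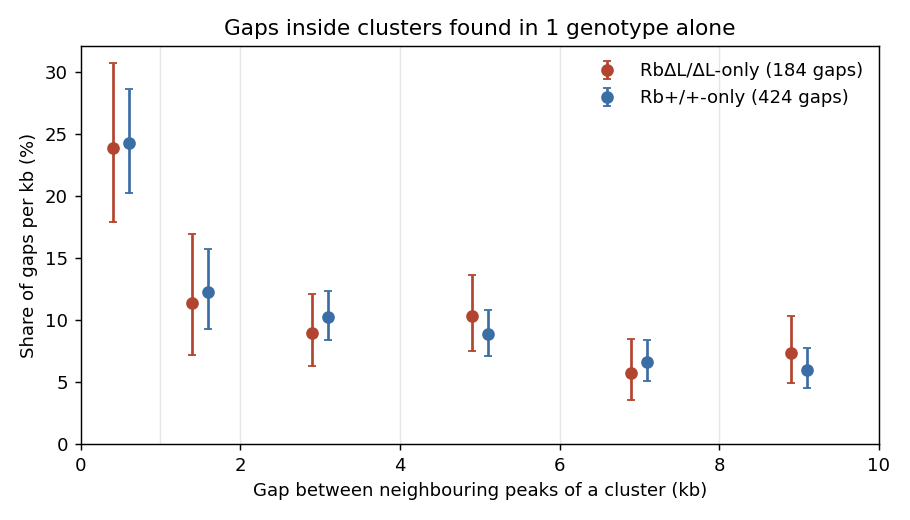
Gaps between neighbouring CAP-D3 peaks in clusters found in 1 genotype alone. Points give the share of gaps in each bin divided by the bin's width in kb (y axis, % per kb) against gap length in kb (x axis), with grey lines at the bin edges and bars for exact 95% binomial intervals. In both lists the share is highest under 1 kb, 23.9% in RbΔL/ΔL and 24.3% in Rb+/+, and the intervals of the lists overlap in every bin.

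The clustered mutant-only peaks were mostly weak peaks, as were the single ones. Their scores ran from 50.13 to 126.88 with a median of 63.15 (quartiles 57.88 and 74.75), and their best rank in the list was 503 of 6437. Single mutant-only peaks had a median of 63.84 (quartiles 58.1 and 73.38) and reached 209.18. RbΔL/ΔL peaks that overlapped a Rb+/+ peak had a median of 110.84 (quartiles 75.2 and 198). A score of at least 100 was reached by 14 of the 349 members (4.01%, interval 2.21 to 6.64%) and by 192 of the 4267 single peaks (4.50%, interval 3.90 to 5.17%). Over the whole RbΔL/ΔL list it was reached by 13.1%, and among overlapping peaks by 55.7%. None of the 349 reached 150, which allows a share of up to 1.05% (exact interval). Of the 4267 single peaks 5 did (0.12%), a share within that interval. Over the whole RbΔL/ΔL list 6.25% did, and among overlapping peaks 36.9%.

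Score made little difference to whether a mutant-only peak was clustered. The clustered share was 7.47% below a score of 60, 7.10% from 60 to 70, 8.77% from 70 to 80, 7.83% from 80 to 100 and 6.80% at 100 or more, and the exact intervals of all 5 bands include the overall 7.56%. In the Rb+/+ list the corresponding shares were 12.2%, 11.8%, 13.4%, 17.03% and 17.3%. The intervals of the lowest band (11.03 to 13.4%) and of the band from 80 to 100 (13.8 to 20.6%) did not overlap there. Whether the lists differ in this respect was not tested.

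Peaks that lay together in the mutant did not resemble each other in score. Across the 149 pairs, the scores of the first and the second peak were nearly unrelated (Spearman's rho 0.06), as were their widths (rho 0.01). These pairs all come from 1 library and are not replicates. The gap between the peaks was also weakly related to the higher score of the pair (rho -0.10). The highest score in a cluster had a median of 72.55 and the lowest a median of 58.6, with a median difference of 9.81 (quartiles 3.34 and 19.3). No cluster had more than 1 member at a score of 100 or more, 14 clusters had exactly 1, and 151 had none. Only 14 of the 349 members scored that high, so this count cannot show whether neighbours resemble each other. Every member reached 80 in 8 clusters.

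The partners of the strongest members, which had to score lower because the strongest were picked, ranged from close to the lowest score listed to well above the median. The highest score, 126.88, belonged to a narrow peak on chromosome 11 at 29870265 to 29870442, and its partner, 1010 bp away at 29868772 to 29869254, scored 52.4. The second, also on chromosome 11, at 3435364 to 3435931, scored 121.8 beside a partner at 63.19, and the third, on chromosome 19 at 6018523 to 6018738, scored 115.65 beside one at 54.13. On chromosome 10, peaks at 79447637 to 79447901 and 79448581 to 79448778 scored 80.18 and 110.84, so that here both were well above the median. A peak on chromosome 1 at 95644619 to 95644810 also scored 110.84, with a partner at 61.43 located 5558 bp away.

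The other pairs among the 10 with the highest-scoring member were on chromosome 7 at 107430165 to 107434068 (scores 107.27 and 66.87), chromosome 3 at 115817523 to 115824040 (102.72 and 80.92), chromosome 8 at 124663578 to 124669500 (50.13 and 102.64), chromosome 15 at 102501266 to 102504007 (102.5 and 54.82) and chromosome 12 at 80484591 to 80487844 (102.31 and 91.24). The chromosome 12 pair had the most even scores of these 10. The chromosome 8 pair paired a peak of score 102.64 with the lowest-scoring member of all, at 50.13.

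**Figure D3:**
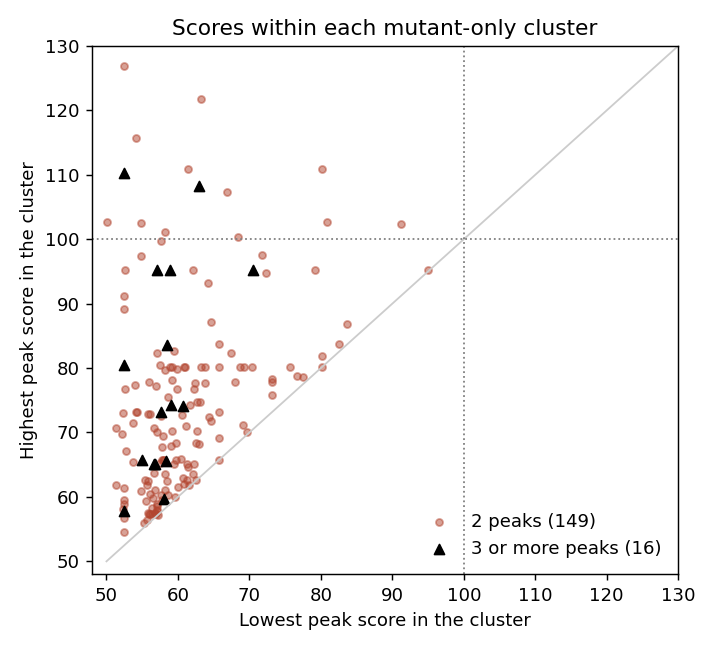
Highest (y axis) against lowest (x axis) peak score in each of the 165 mutant-only clusters, with circles for clusters of 2 peaks and triangles for those of 3 or more. The diagonal marks equal scores and dotted lines mark a score of 100. The 14 clusters with a peak at 100 or more all lie left of the vertical line, since each also has a lower-scoring peak, and most points lie at a lowest score near the median of 58.6.

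Members had the usual width of a peak in this list. Their widths ran from 178 to 1113 bp with a median of 416 bp (quartiles 348 and 466 bp), against 409 bp (quartiles 338 and 464 bp) for single mutant-only peaks and 412 bp for the whole list. Only 9 were wider than 600 bp. Width went with score in an uneven way. Members below a score of 60 had a median width of 449 bp, and those from 80 to 100 a median of 311.5 bp. Of the 62 members at 80 or more, 28 (45.2%, interval 32.5 to 58.3%) were narrower than 300 bp. The share was 52.7% (interval 49.1 to 56.3%) of 757 single mutant-only peaks at such scores, and 15.96% (interval 13.4 to 18.8%) of 758 RbΔL/ΔL peaks that overlapped a Rb+/+ peak. Mutant-only peaks of higher score, clustered or not, were thus more often narrow than the matched ones, by more than counting error. Between scores of 80 and 100, where the groups can be matched, the shares were 47.9% of 48 members (interval 33.3 to 62.8%), 51.9% of 565 single peaks and 23.3% of 163 overlapping peaks (interval 17.1 to 30.6%). Many members of that band carried 1 of 2 exact scores that recur in the RbΔL/ΔL list and in no Rb+/+ peak. Of the 48, 16 scored 80.18 and 7 scored 95.25. This was not particular to members. Of the 565 single peaks in that band 193 and 102 had these scores, and of all 872 RbΔL/ΔL peaks in it 249 and 140. Members with a score carried by at least 50 RbΔL/ΔL peaks had a median width of 299 bp, against 428 bp for the other members. The excess of narrow peaks was thus not shown apart from these recurring scores, and its cause was not tested.

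Mutant-only clusters occurred on all 20 chromosomes that carried peaks. Chromosome 11 had the most, with 17 clusters or 14.0 per 100 Mb (interval 8.13 to 22.3), against 6.25 (interval 5.33 to 7.28) over all chromosomes. Mutant-only peaks were themselves denser on chromosome 11, at 2.31 per Mb against 1.75 over all chromosomes. How far that density goes with the number of clusters was not tested. Of its 281 mutant-only peaks, 12.1% (interval 8.53 to 16.5%) were clustered, with an interval just above the overall 7.56%. That interval counts members of 1 cluster as independent and is too narrow. All 17 clusters were pairs, and they were spread along the chromosome from 3435364 to 118224659. Next in density came chromosome 15, with 9 clusters (8.70 per 100 Mb, interval 3.98 to 16.5), and chromosome 10, with 11 (8.46, interval 4.22 to 15.1), and their intervals include the overall value. Wild-type-only clusters were likewise most numerous and densest there, with 35 clusters or 28.7 per 100 Mb against 14.4 over all chromosomes, and 16.9% of its wild-type-only peaks were clustered against 12.8% overall. Chromosome 11 was singled out as the highest of 20, which an interval for 1 chromosome does not take into account.

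The X chromosome had a single cluster, on X at 163216444 to 163223882, with weak peaks of scores 56.44 and 55.67. That is 0.60 clusters per 100 Mb (interval 0.0152 to 3.34), against 6.63 (interval 5.66 to 7.73) on the autosomes. Mutant-only peaks were themselves sparser on X, at 0.774 per Mb against 1.81 on the autosomes. Of the 129 on X, 2 were clustered (1.55%, interval 0.188 to 5.49%), and on the autosomes 7.73% (interval 6.97 to 8.55%) were. In the Rb+/+ list, 6.19% of wild-type-only peaks on X were clustered and 13.04% of those on autosomes. The number of X copies in these cells was not determined, and copy number and density cannot be told apart here. The lowest autosomal density was on chromosome 6, with 5 clusters (3.34 per 100 Mb, interval 1.09 to 7.80).

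Near chromosome ends, the shares of clusters and of single peaks did not differ by more than counting error. Mouse chromosomes have their centromere at the low-coordinate end, and the first 3 Mb hold no sequence. The next 5 Mb held 7 of the 165 clusters (4.24%, interval 1.72 to 8.55%) and 3.70% of the single mutant-only peaks. The last 5 Mb held 9 clusters (5.45%, interval 2.52 to 10.1%) and 4.76% of the single peaks.

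**Figure D4:**
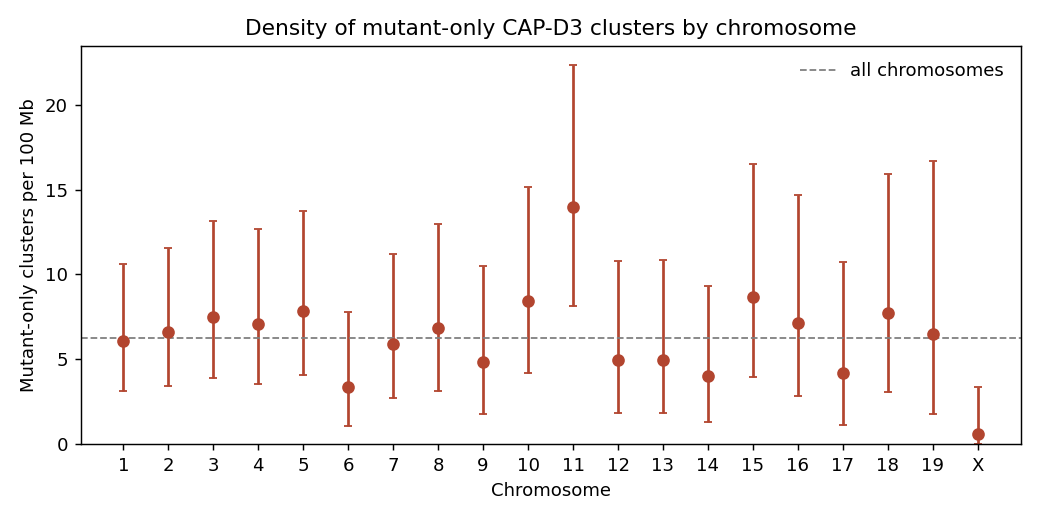
Density of mutant-only CAP-D3 clusters on each chromosome (points, clusters per 100 Mb of chromosome length) with exact 95% Poisson intervals (bars). The dashed line marks 6.25, the value over all chromosomes. Chromosome 11 lies above it with its whole interval and the X chromosome below it, and every other interval includes it.

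Although no Rb+/+ peak lay within 10 kb, the clusters were near wild-type peaks more often than single mutant-only peaks were. The median distance from a cluster to the nearest Rb+/+ peak was 66.97 kb (interval of the median 46.5 to 80.9 kb), against 91.1 kb (86.9 to 96.1 kb) for single peaks. Within 50 kb there was a Rb+/+ peak for 72 clusters (43.6%, interval 35.9 to 51.6%) and for 32.2% of single peaks (interval 30.8 to 33.6%). Only 6 clusters (3.64%, interval 1.35 to 7.75%) were more than 500 kb from any Rb+/+ peak, against 9.05% of single peaks (interval 8.20 to 9.95%). Counted peak by peak, so that the length of a cluster plays no part, the median for clustered peaks was 68.8 kb (54.5 to 80.3 kb). Wild-type-only clusters stood in a similar relation to the mutant list, with a median distance of 69.0 kb against 104 kb for single wild-type-only peaks.

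The cluster nearest to a wild-type peak lay on chromosome 6 at 124705845 to 124706908, with scores of 87.1 and 64.64, and was 10013 bp from a Rb+/+ peak scored 278.69. Next came chromosome 6 at 83001107 to 83004624 (10316 bp, scores 52.4 and 58.95) and chromosome 13 at 20554054 to 20556815 (11307 bp, scores 58.09 and 65.68). Just on the other side of the limit were RbΔL/ΔL peaks that had a mutant-only peak within 10 kb but also a Rb+/+ peak 9997 bp (chromosome 5, 92787046 to 92787341, score 65.68), 9992 bp (chromosome 9, 78367047 to 78367498, score 57.82) or 9475 bp away (chromosome 6, 127102389 to 127102792, score 60.61). In all, 23 peaks were left out in this way. At the far end, the cluster on chromosome 8 at 65159339 to 65169656 (scores 68.74 and 80.18) was 866.9 kb from any Rb+/+ peak, that on chromosome 12 at 27086745 to 27096504 (59.88 and 56.54) 720.2 kb, and that on chromosome 7 at 80683704 to 80690947 (58.49 and 62.54) 635.8 kb.

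Mutant-only peaks were clustered more often where wild-type peaks were frequent in the wider surroundings. Of the 398 mutant-only peaks with no Rb+/+ peak between 10 and 500 kb away, 12 (3.02%, interval 1.57 to 5.21%) were clustered. With 1 Rb+/+ peak at that distance the share was 5.10%, with 2 or 3 it was 4.83%, and with 4 to 6 it was 7.05%. With 7 or more it was 13.2% (162 of 1228, interval 11.3 to 15.2%). These intervals count members of the same cluster as independent and are too narrow. The rule used Rb+/+ peaks only up to 10 kb, so these farther peaks did not enter it directly. The share was not split by the number of RbΔL/ΔL peaks in the same surroundings. Frequent Rb+/+ peaks and a high density of peaks in both lists therefore cannot be told apart here. Seen from the clusters, a median of 6 Rb+/+ peaks (quartiles 3 and 9) and 5 RbΔL/ΔL peaks lay 10 to 500 kb away, against 4 and 3 for single mutant-only peaks. RbΔL/ΔL peaks that overlapped a Rb+/+ peak had 6 and 4.

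**Figure D5:**
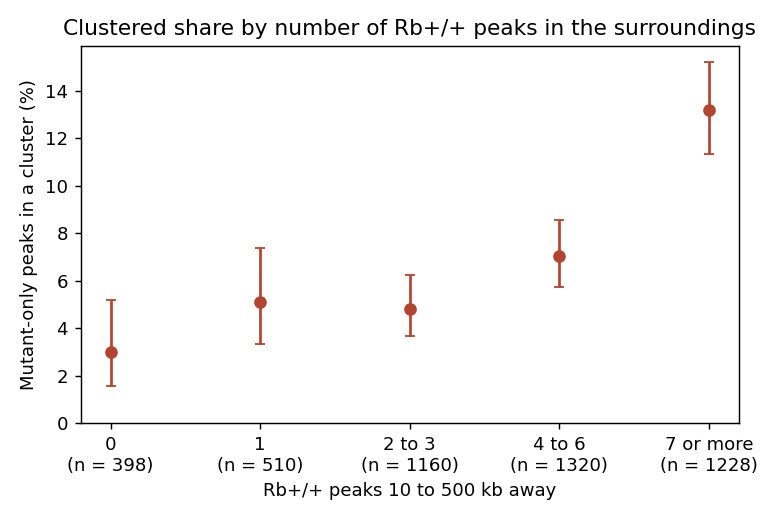
Share of mutant-only CAP-D3 peaks that belong to a cluster (y axis, %) by the number of Rb+/+ peaks lying 10 to 500 kb from the peak (x axis, with the number of mutant-only peaks in each bin). Bars are exact 95% binomial intervals. The share is 3.02% without such Rb+/+ peaks and 13.2% with 7 or more, and these intervals do not overlap. They count members of the same cluster as independent and are too narrow.

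Some clusters of the mutant lay beside clusters found in the wild type alone. A wild-type-only cluster was within 100 kb of 16 mutant-only clusters (9.70%, interval 5.64 to 15.3%) and within 1000 kb of 84 (50.9%). The same shares were not computed for single mutant-only peaks or for the whole RbΔL/ΔL list. Whether such nearness is particular to clusters is therefore not shown. The closest were on chromosome 6, where the mutant pair at 83001107 to 83004624 faced a wild-type pair at 82983175 to 82990790, 10.3 kb away, and on chromosome 11, where the mutant pair at 117102308 to 117109143 lay 11.8 kb from 3 wild-type-only peaks at 117120976 to 117127804. On chromosome 2 the mutant pair at 27784897 to 27792514 lay 12.8 kb from a wild-type pair at 27767241 to 27772122. In such places each list held peaks of its own, side by side.

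Most mutant-only clusters had no other mutant-only cluster within 100 kb. Of the 165, 8 (4.85%, interval 2.12 to 9.33%) had one that near, and 46 (27.9%, interval 21.2 to 35.4%) had one within 1000 kb. The shares that an even spread along the genome would give were not computed. These counts therefore do not show whether the clusters lie closer together or farther apart than that. The closest, on chromosome 8, were the pairs at 124492616 to 124494467 and 124507242 to 124516767, 12.8 kb apart. That megabase, 124 to 125 Mb of chromosome 8, held 3 clusters among 17 RbΔL/ΔL and 17 Rb+/+ peaks. The other megabase with 3 clusters, 96 to 97 Mb of chromosome 3, had 13 RbΔL/ΔL and 8 Rb+/+ peaks. A further 10 megabases had 2 clusters, and 139 had 1. Among those with 2, 123 to 124 Mb of chromosome 4 held 5 members among 7 RbΔL/ΔL peaks and only 2 Rb+/+ peaks, whereas 79 to 80 Mb of chromosome 10 held 4 members among 15 RbΔL/ΔL and 27 Rb+/+ peaks.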

How the data were processed

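Each ChIP library has its own deposited peak list, so peaks were not called on pooled samples. The tools named in the submitters' processing notes are Bowtie 1.0 and MACS 1.4.2, and the build is mm9. For the caller's settings, its control and the handling of duplicate or multiply mapped reads, details were not given in the sources used here, and each can change which weak or neighbouring peaks are listed. The unit of the values is a score per peak, deposited by the authors without a stated scale.

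Distances, chaining and intervals were computed in Python 3.11.15 (scipy 1.17.1, pandas 2.3.3, numpy 2.4.6). A gap is the number of bases between the facing edges of neighbouring peaks. Chromosome lengths of mm9 came from GenomeInfoDb 1.38.1, and every peak ended within them. Shares have exact (Clopper-Pearson) and densities exact Poisson intervals, and medians have binomial order-statistic intervals, all at 95%. On simulated lists the chaining recovered 40 of 40 planted clusters. Clusters were named by a rule on size, score, span and distance. The members, the rule and the alternatives were chosen with earlier results of these data known. Alternatives were other gaps, other distances to Rb+/+ peaks, minimum scores and a shortened Rb+/+ list. No gene annotation or sequence was used, because the tables at hand belong to a later build.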

Additional observations from a re-analysis of the deposited data

How the results depend on the processing

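Of 108 alternative values for 13 results under 9 alternatives, 39 moved and 69 did not, where a number moved if it changed by more than 1.5 times and any other value if it left the 95% interval. The 17 values for the rule applied to the Rb+/+ list and for clustered against single scores were chosen after seeing the data. A gap of at most 5 kb gave 224 members in 108 clusters, a clustered share of 4.85%, 94.4% of clusters with 2 peaks, a median gap of 1747 bp and span of 2764 bp, no member (0%) on X, and 8.73% of Rb+/+-only peaks clustered. A gap of 20 kb gave 599 members, 281 clusters, 12.98%, 8091.5 bp, 10199 bp and 19.4% for Rb+/+. Asking only for no overlap with a Rb+/+ peak gave a clustered share of 8.98%, 31.5 kb to the nearest Rb+/+ peak, 59.03% of clusters with one within 50 kb, and 14.5% for Rb+/+. With no peak of the other list within 20 kb, the distance was 81.4 kb and the share within 50 kb 32.1%. With none within 50 kb there were 197 members in 93 clusters, a share of 6.37%, 135.9 kb, 0% within 50 kb by construction, and 11.2% for Rb+/+. A minimum score of 60 gave 156 members, 75 clusters, 5.32%, 94.7% with 2 peaks, a median score of 70.83 and width of 382.5 bp, 0% on X, and 7.42% for Rb+/+. A minimum score of 100 left 0 members and 0 clusters (0%) of 206 mutant-only peaks, and 1.41% for Rb+/+; the remaining results have no value there. The shortened Rb+/+ list gave 10.1% for Rb+/+. The median score of clustered minus single peaks was -0.69, and changed sign with a gap of 5 kb (0.03) and at a score of 60 (0.82). The cause of these changes was not tested beyond what each alternative's construction sets. No paired analysis was possible because only 1 library exists for either genotype, and none could be left out. Depth is unknown, and how far it set which weak peaks were listed was not tested.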

Other observations

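Some exact scores recurred in the RbΔL/ΔL list. There were 8 values carried by at least 50 peaks each, and together they made up 17.5% of the list. Of the clustered mutant-only peaks, 59 (16.9%) carried one of them, as did 842 single mutant-only peaks (19.7%). The most frequent in the list were 65.68 (14 members, 4.01%, against 5.20% of the list) and 80.18 (16 members, 4.58% against 3.87%). Then came 95.25 (7 members, 2.01% against 2.17%) and 52.4 (11 members, 3.15% against 2.00%). In the Rb+/+ list, 59.5 was carried by 18 peaks, 52.4 by 3 and 62.69 by 1, and the other 5 of the 8 values did not occur. Members with a recurring score had a median width of 299 bp (quartiles 272.5 and 356.5 bp), against 428 bp for the other members. Single mutant-only peaks showed 304 bp against 429 bp. In 2 of the 149 pairs both peaks had the same score, on chromosome 6 at 91662000 to 91663348 (80.18) and on chromosome 10 at 80119034 to 80127665 (65.68). What the recurring scores measure was not tested.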
